A study of Homo sapiens with 3 samples.

Results

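The genes described here lie near the end of the long arm of chromosome 9, in band 9q34, in order from GPR107 to PAEP, with unlisted genes between some of them. They were chosen by their measured ratios to Zeo in earlier results of these arrays, as genes of 1 region with lower signals in both transfected lines, so those ratios are given as a description. Of the 43 listed genes, 41 had a probe set whose annotation names that gene alone, out of 19775 genes so measured on the arrays. AK8 and SARDH had none and are not analysed here. Each gene is represented by its brightest probe set over the 3 arrays.

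RNA was measured in 3 lines made from HT1080, an established human fibrosarcoma cell line, with 1 array per line. The RECK line was stably transfected with the plasmid pZeoSV2(+) carrying RECK, a glycoprotein on the cell surface that restrains matrix metalloproteinases. The RECK/4NQ line received the same plasmid with a mutant RECK, whose asparagines at 4 N-glycosylation sites were exchanged for glutamine. The Zeo line was mock-transfected. The medium of every line held Zeocin at 50 µg/mL, the selecting drug, and 10% fetal calf serum. Whether a line is 1 clone or a pool of transfected cells is not given in the sources used here. With 1 array per line there is no replicate, no SD and no test, and whatever else differs between the lines cannot be told apart from the transfected gene. The other arm of the same chromosome carries RECK itself, whose brightest probe set read 387 in RECK and 442 in RECK/4NQ, against 264 in Zeo. Whether it lies in the transfected part of the gene is not given in the sources used here.

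Genes of 9q34 serve unrelated functions. ABL1 encodes the tyrosine kinase that is fused to BCR in chronic myeloid leukaemia, and TSC1 encodes hamartin, which restrains mTOR complex signalling together with tuberin. The surfeit cluster packs SURF6, MED22, SURF1, SURF2 and SURF4 closely together, and several neighbours in the band share a promoter region from which they are transcribed in opposite directions. Most of the others are housekeeping genes of RNA processing, transcription and secretion, interspersed with tissue-restricted genes such as DBH, GFI1B and PAEP.

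Sequences upstream of 7 of the genes are printed for reference, from RefSeq and the GRCh38.p14 build, each as the 250 bases before the annotated start of transcription, 5′ to 3′ on the strand of the gene. FUBP3, POMT1, UCK1 and PAEP are shown as examples of the 12 listed genes that were lower in both transfected lines by at least 1.5-fold. DDX31 and GTF3C4 are shown as neighbours transcribed away from each other, and SURF1 stands for the surfeit cluster. Capitals mark matches to the motifs searched, on either strand. FUBP3 lies at chr9:130579327-130579576, plus strand, POMT1 at chr9:131502668-131502917, plus strand, and UCK1 at chr9:131531264-131531513, minus strand. DDX31 lies at chr9:132669984-132670233, minus strand, and GTF3C4 at chr9:132669785-132670034, plus strand. SURF1 lies at chr9:133356488-133356737, minus strand, and PAEP at chr9:135561506-135561755, plus strand.
FUBP3: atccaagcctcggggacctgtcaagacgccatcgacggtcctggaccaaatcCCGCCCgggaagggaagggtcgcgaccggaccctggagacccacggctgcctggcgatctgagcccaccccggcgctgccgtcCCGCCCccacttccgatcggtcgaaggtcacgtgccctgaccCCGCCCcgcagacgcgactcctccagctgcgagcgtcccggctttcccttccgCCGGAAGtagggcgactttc
POMT1: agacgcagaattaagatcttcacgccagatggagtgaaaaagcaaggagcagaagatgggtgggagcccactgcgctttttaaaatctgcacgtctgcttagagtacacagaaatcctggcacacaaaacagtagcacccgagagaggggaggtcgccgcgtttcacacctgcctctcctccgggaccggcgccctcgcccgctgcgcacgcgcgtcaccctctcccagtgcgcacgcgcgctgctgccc
UCK1: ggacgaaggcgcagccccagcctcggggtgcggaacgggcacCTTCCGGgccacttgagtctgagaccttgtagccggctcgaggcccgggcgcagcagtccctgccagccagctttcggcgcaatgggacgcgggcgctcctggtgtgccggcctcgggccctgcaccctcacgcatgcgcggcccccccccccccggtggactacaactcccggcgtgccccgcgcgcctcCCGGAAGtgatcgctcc
DDX31: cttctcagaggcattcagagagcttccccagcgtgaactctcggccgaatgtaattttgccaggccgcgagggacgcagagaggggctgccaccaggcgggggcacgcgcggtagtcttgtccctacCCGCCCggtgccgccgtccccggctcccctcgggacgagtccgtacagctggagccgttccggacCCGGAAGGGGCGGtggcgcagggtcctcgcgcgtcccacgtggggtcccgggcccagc
GTF3C4: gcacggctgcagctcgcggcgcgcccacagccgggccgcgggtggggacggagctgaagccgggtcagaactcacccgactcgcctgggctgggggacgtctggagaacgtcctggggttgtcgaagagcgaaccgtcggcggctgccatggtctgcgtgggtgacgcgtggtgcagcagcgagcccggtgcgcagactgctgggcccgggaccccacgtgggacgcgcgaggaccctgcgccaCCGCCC
SURF1: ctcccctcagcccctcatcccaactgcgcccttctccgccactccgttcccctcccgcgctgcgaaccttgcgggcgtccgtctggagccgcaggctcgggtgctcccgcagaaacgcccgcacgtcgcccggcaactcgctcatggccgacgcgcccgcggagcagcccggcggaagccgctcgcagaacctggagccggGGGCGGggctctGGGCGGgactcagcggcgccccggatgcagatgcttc
PAEP: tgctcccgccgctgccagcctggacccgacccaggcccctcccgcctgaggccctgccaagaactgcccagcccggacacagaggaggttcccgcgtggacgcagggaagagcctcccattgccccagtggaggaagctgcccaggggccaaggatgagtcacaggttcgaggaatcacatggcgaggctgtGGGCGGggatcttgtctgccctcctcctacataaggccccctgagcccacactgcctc

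The starts of DDX31 and GTF3C4 lie 52 bases apart, so their upstream windows share 51 bases, read on opposite strands. Motifs were searched on both strands in RefSeq windows that also hold the first 50 transcribed bases, 300 bases in all. There were 60 such windows for 36 of the listed genes and 35116 in the whole table. The GC box GGGCGG was in 71.7% of the windows of the listed genes, 65.7% of those of all genes with a mean signal at or above the 60th percentile, and 45% of all windows. The ETS motif CCGGAAG was in 28.3%, 16.7% and 10.3% of these windows, and the 17 windows that held it belonged to 16 of the listed genes. The TATA box TATAAA was in 3.33%, 6.32% and 11.5%, CCAAT in 25%, 34.5% and 34.6%, and the YY1 motif GCCATNTT in 6.67%, 9.3% and 6.58%. The NRF1 palindrome was in 0 of the 60 windows and in 1.24% of all. The median GC content was 68.7% for the listed genes and 58.7% for all windows. Genes at or above the 60th percentile of signal were also richer in GC than all windows, with a median near 65.3% per gene. Not all of the 10719 genes that bright had a promoter window. Those with one were sorted into 4 bins of 2181 by promoter GC content. In every bin the median log2 ratio of RECK over Zeo lay between -0.19 and -0.21. For RECK/4NQ over Zeo it lay between -0.09 and -0.11. The bin with the most GC held 15 listed genes, and the others held 7, 3 and 4.

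The arrays report a MAS5 signal per probe set, which is a linear intensity. Any signal under 12.3, the 40th percentile over all arrays and called the floor, was raised to it before log2 ratios were taken, and a fold with 1 signal below the floor is a lower bound, written "at least". The median log2 ratio of the 14282 genes with a mean signal at or above the floor was -0.19 for RECK and -0.12 for RECK/4NQ with Zeo as denominator, and -0.06 for RECK over the mutant line, so medians of the listed genes are also given relative to these. As an error scale each ratio is set against the spread of its neighbours in level (the scaled median absolute deviation of the 1000 genes nearest in mean signal), called the level spread, in which noise and true differences are mixed. The 18 hybridisation control probe sets had mean log2 ratios of 0.34 ± 0.17 in RECK and -0.05 ± 0.12 in RECK/4NQ relative to Zeo (SD over probe sets). For 24 labelling controls these were -0.31 ± 0.12 and -0.36 ± 0.12. Their part in the results was not tested. Mesenchymal markers such as VIM were above the floor on all arrays (6 of 6, summed signal 25940 in RECK, 24740 in RECK/4NQ and 23910 in Zeo). Of 5 epithelial markers none was above the floor in RECK, 1 (CDH1, at 15.6) was in RECK/4NQ and none was in Zeo. Of the 4 leukocyte markers 2 in RECK, 2 in RECK/4NQ and 3 in Zeo were above it, led by LAPTM5 at 311 in RECK, 179 in RECK/4NQ and 269 in Zeo, with CD14 below the floor on every array. Of the 5 endothelial markers 2 in RECK, 1 in RECK/4NQ and 1 in Zeo were above it, led by PECAM1 at 70.3 in RECK, 72.4 in RECK/4NQ and 108 in Zeo, with CDH5 and TEK below the floor on every array.

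Relative to Zeo, 24 of the 41 genes were at least 1.5-fold lower in RECK and 4 at least 1.5-fold higher, where 18.4% of all genes were that much lower and 9.37% that much higher. In RECK/4NQ 17 were at least 1.5-fold lower than in Zeo and 1 was higher, where 17.7% and 7.89% of all genes were. At the 2-fold limit the counts were 10 lower and 2 higher in RECK (6.7% and 4.03% of all genes) and 6 lower and 0 higher in RECK/4NQ (7.13% and 2.81%). Both lines were compared with the same Zeo array, so these counts are not separate observations, and the choice of genes fixed their direction. On both arrays 31 of the 41 were below Zeo, as were 38.2% of all genes, and 12 were lower by at least 1.5-fold on both (8.64% of all genes). Of these, 2 passed 2-fold on both (2.51% of all genes). The 12 were FUBP3, FIBCD1, FAM78A, POMT1, UCK1, GFI1B, MED22, REXO4, DBH, VAV2, WDR5 and PAEP.

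The median log2 ratio of the 38 genes with a mean signal at or above the floor was -0.78 for RECK over Zeo, which is -0.59 relative to all genes. For RECK/4NQ over Zeo it was -0.47, or -0.35 relative to all genes. Over all 41 the medians were -0.72 and -0.46. PLPP7, ADAMTSL2 and DBH were not among the 38. GFI1B, GBGT1, SLC2A6 and OLFM1 were, although each was below the floor on the RECK/4NQ array, and the other 34 were above it on all arrays. In these bulk samples fewer cells of a kind and less RNA per cell cannot be told apart.

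**Figure D1:**
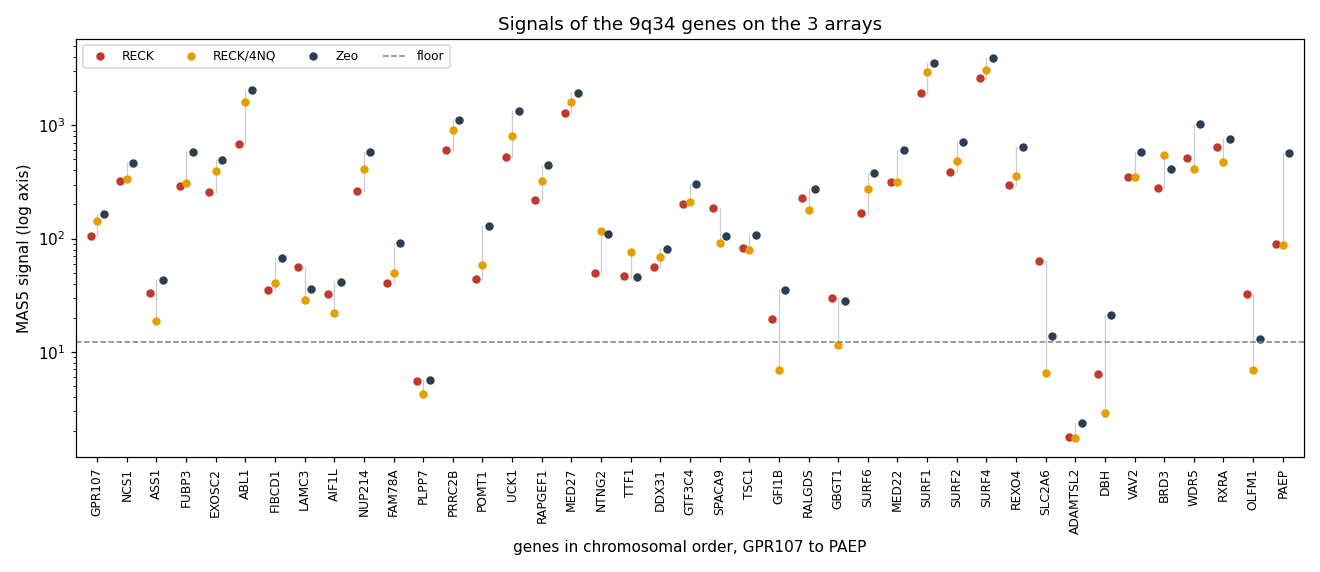
MAS5 signal on a log axis of the 41 measured genes from GPR107 to PAEP, in their order along the chromosome, on the RECK, RECK/4NQ and Zeo arrays (1 point per array, no replicates; the dashed line is the floor of 12.3). The Zeo point is the highest for most genes, with LAMC3, SPACA9, GBGT1, SLC2A6 and OLFM1 highest on the RECK array and NTNG2, TTF1 and BRD3 highest on the RECK/4NQ array.

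PAEP had the largest difference of all the listed genes. It encodes glycodelin, a secreted lipocalin best known from the endometrium and the placenta. Its signal was 90.2 in RECK and 87.2 in RECK/4NQ, against 568 in Zeo, which is 6.29-fold lower in RECK and 6.51-fold lower in RECK/4NQ. These ratios lay at -5.64 and -6.19 level spreads from the median of all genes. PAEP is the outermost of the listed genes towards the end of the chromosome and has 1 probe set, of the kind that can match several transcripts. SOHLH1, the next gene measured beyond it, had a signal of 40.9 in RECK and 34.2 in RECK/4NQ, against 42.3 in Zeo. At the other end GPR107, a membrane protein of the Golgi, read 105 in RECK and 144 in RECK/4NQ, against 164 in Zeo. FNBP1, its outer neighbour and a membrane-bending adaptor of endocytosis, read 191 in RECK and 249 in RECK/4NQ, against 363 in Zeo. By these brightest probe sets FNBP1 was further below Zeo than GPR107. FNBP1 was thus 1.90-fold lower in RECK and 1.46-fold lower in RECK/4NQ, and SOHLH1 was 1.04-fold and 1.24-fold lower. Further GPR107 probe sets had log2 ratios to Zeo of -0.41, -0.79 and -0.69 in RECK, beside -0.93 for FNBP1. In RECK/4NQ these were -0.85, -0.81 and 0.18, beside -0.54 for FNBP1. The order of GPR107 and FNBP1 in RECK/4NQ therefore depends on the probe set.

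Signalling genes included the kinase ABL1, whose signal was 678 in RECK and 1593 in RECK/4NQ, against 2035 in Zeo. This was 3.00-fold lower in RECK (-3.93 level spreads from the median of all genes) and 1.28-fold lower in RECK/4NQ, and the RECK signal was also lower than that of RECK/4NQ by 1.23 on the log2 scale. RAPGEF1, an exchange factor for the GTPase RAP1 that acts downstream of ABL and CRK proteins, was at 221 in RECK and 323 in RECK/4NQ, against 443 in Zeo. Its other probe sets were lower as well, one at 113 in RECK and 125 in RECK/4NQ, against 237 in Zeo, and the other below the floor in both transfected lines and at 42.1 in Zeo. VAV2, a guanine nucleotide exchange factor, gave nearly the same signal in both transfected lines, 352 in RECK and 353 in RECK/4NQ, against 580 in Zeo. A dimmer VAV2 probe set differed between these lines, at 47 in RECK and 23.7 in RECK/4NQ, against 63 in Zeo. The remaining VAV2 probe set was below the floor on every array. RALGDS, which activates Ral GTPases downstream of RAS, was at 228 in RECK and 179 in RECK/4NQ, against 276 in Zeo. TSC1 was at 83.3 in RECK and 79.8 in RECK/4NQ, against 108 in Zeo, and the calcium sensor NCS1 was at 323 in RECK and 339 in RECK/4NQ, against 463 in Zeo. Further NCS1 probe sets at 221 and 31.4 in Zeo were above it in RECK/4NQ, at 238 and 46.3. In RECK they were below it, at 178 and 24.8. Those at 296 and 354 in Zeo were lower in both lines, at 182 and 258 in RECK and 219 and 268 in RECK/4NQ. By the brightest probe sets of these 6 signalling genes, 3 passed 1.5-fold lower in RECK and 2 in RECK/4NQ, and all 6 were below Zeo on both arrays, where 18.4%, 17.7% and 38.2% of all genes were.

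Genes of RNA metabolism and nuclear transport formed the group with the lowest median in RECK, -1 in log2 ratio over 7 genes, of which 6 were at least 1.5-fold lower. In RECK/4NQ their median was -0.46 and 2 of the 7 were at least 1.5-fold lower. Of all genes 18.4% were in RECK and 17.7% in RECK/4NQ, and the count in RECK/4NQ is not far from that share. FUBP3, a single-strand nucleic acid binding protein of the FUSE-binding family, was at 293 in RECK and 308 in RECK/4NQ, against 586 in Zeo, 2.00-fold lower in RECK and 1.90-fold lower in RECK/4NQ. Its ratio in RECK was just short of the 2-fold limit, and RAPGEF1, 2.01-fold lower, was just past it. The other FUBP3 probe set was dimmer, at 75.4 in RECK and 133 in RECK/4NQ, against 113 in Zeo. It was thus below Zeo in RECK alone. REXO4, a nucleolar exonuclease, was at 299 in RECK and 357 in RECK/4NQ, against 646 in Zeo. NUP214, a nucleoporin on the cytoplasmic face of the pore, was at 262 in RECK and 415 in RECK/4NQ, against 577 in Zeo. The nucleolar protein gene SURF6 showed the same order, 167 in RECK and 275 in RECK/4NQ, against 379 in Zeo. In both, the RECK/4NQ signal stood between that of RECK and that of Zeo. EXOSC2, a cap subunit of the RNA exosome, was at 257 in RECK and 394 in RECK/4NQ, against 493 in Zeo. PRRC2B, an RNA-binding protein tied to translation, was at 607 in RECK and 903 in RECK/4NQ, against 1126 in Zeo. DDX31, a helicase of ribosome assembly, was at 55.5 in RECK and 68.9 in RECK/4NQ, against 80.8 in Zeo. Another DDX31 probe set was further apart, at 29.3 in RECK and 27.7 in RECK/4NQ, against 82.8 in Zeo.

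Among 8 genes of transcription and chromatin, 5 were at least 1.5-fold lower in RECK and none higher, and in RECK/4NQ 4 were lower and 1 was higher. Of all genes 18.4% were that much lower and 9.37% higher in RECK, and 17.7% lower and 7.89% higher in RECK/4NQ. WDR5, a scaffold of the histone H3 methyltransferase complexes, was at 517 in RECK and 411 in RECK/4NQ, against 1028 in Zeo. It was 1.99-fold lower in RECK and 2.50-fold lower in RECK/4NQ, and its second probe set read 355 in RECK and 496 in RECK/4NQ, against 875 in Zeo. The Mediator subunit gene MED22 was at 315 in RECK and 313 in RECK/4NQ, against 600 in Zeo, nearly equal in the transfected lines. MED27, another Mediator subunit, was closer to Zeo, at 1285 in RECK and 1622 in RECK/4NQ, against 1945 in Zeo. GTF3C4, a subunit of the RNA polymerase III factor TFIIIC, was at 201 in RECK and 210 in RECK/4NQ, against 302 in Zeo. With DDX31, transcribed away from it, GTF3C4 had log2 ratios of -0.59 in RECK and -0.53 in RECK/4NQ, where DDX31 had -0.54 in RECK and -0.23 in RECK/4NQ. Both further GTF3C4 probe sets were below Zeo in RECK but above it in RECK/4NQ, with log2 ratios there of 0.5 and 0.23. At the 1.5-fold limit GTF3C4 was just inside in RECK, and SURF4, at -0.58, just outside. RXRA, the retinoid X receptor that pairs with many nuclear receptors, was at 647 in RECK and 472 in RECK/4NQ, against 756 in Zeo. GFI1B, a transcriptional repressor that acts in blood cell development, was dim, at 19.6 in RECK and 6.91 in RECK/4NQ, against 35.1 in Zeo. It was so at least 2.86-fold lower in RECK/4NQ.

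The BET bromodomain gene BRD3 and the RNA polymerase I terminator TTF1 did not share the direction of the others in RECK/4NQ. BRD3 was at 281 in RECK and 551 in RECK/4NQ, against 409 in Zeo, so that only RECK was below Zeo. A second BRD3 probe set did not show the higher value, with 238 in RECK and 307 in RECK/4NQ, against 339 in Zeo. TTF1 was at 46.5 in RECK and 76.7 in RECK/4NQ, against 45.8 in Zeo, while its second probe set gave 29.8 in RECK and 45.2 in RECK/4NQ, against 48.9 in Zeo. Its 2 probe sets therefore disagree in direction for both transfected lines.

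In the membrane and secretory group, POMT1, which starts the O-mannose glycans of dystroglycan, was at 43.8 in RECK and 58.9 in RECK/4NQ, against 129 in Zeo. With signals 2.94-fold lower in RECK and 2.19-fold lower in RECK/4NQ it was, beside PAEP, the only listed gene past 2-fold on both arrays. SURF4, a cargo receptor of the endoplasmic reticulum, was bright, at 2636 in RECK and 3103 in RECK/4NQ, against 3945 in Zeo. Its other probe sets gave 1720 in RECK and 2210 in RECK/4NQ, against 2760 in Zeo, and 1900 in RECK and 2320 in RECK/4NQ, against 3180 in Zeo. All 3 SURF4 probe sets thus had the same order, RECK lowest and Zeo highest. FIBCD1, an endocytic receptor for acetylated structures, was at 35 in RECK and 40.1 in RECK/4NQ, against 67.9 in Zeo, and a second probe set was below the floor on every array. GBGT1, the Forssman glycolipid synthase, was at 30.1 in RECK and 11.4 in RECK/4NQ, against 28.2 in Zeo, so at least 2.30-fold lower in RECK/4NQ alone. SLC2A6, a hexose transporter, had the largest ratio in the opposite direction, with 63.1 in RECK and 6.5 in RECK/4NQ, against 13.8 in Zeo, 4.57-fold higher in RECK. At 2.60 level spreads above the median of all genes, it was dim in Zeo, close to the floor.

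Enzyme genes included UCK1, the uridine-cytidine kinase of pyrimidine salvage, at 525 in RECK and 812 in RECK/4NQ, against 1348 in Zeo. A second UCK1 probe set agreed in direction, with 132 in RECK and 188 in RECK/4NQ, against 257 in Zeo. SURF1, an assembly factor of cytochrome c oxidase, was at 1929 in RECK and 2933 in RECK/4NQ, against 3555 in Zeo. SURF2, a neighbour in the surfeit cluster, was at 390 in RECK and 480 in RECK/4NQ, against 712 in Zeo, with log2 ratios of -0.87 in RECK and -0.57 in RECK/4NQ, beside -0.88 in RECK and -0.28 in RECK/4NQ for SURF1. Argininosuccinate synthase, ASS1, was dim, at 33.1 in RECK and 18.6 in RECK/4NQ, against 42.7 in Zeo, and passed 2-fold in RECK/4NQ alone. Dopamine beta-hydroxylase, DBH, was below the floor at 6.34 in RECK and 2.88 in RECK/4NQ, against 21.1 in Zeo, at least 1.73-fold lower in both.

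Secreted and matrix genes other than PAEP varied in direction. LAMC3, a laminin chain, was at 55.9 in RECK and 28.6 in RECK/4NQ, against 35.8 in Zeo. OLFM1, a secreted glycoprotein of the nervous system, was at 32.1 in RECK and 6.89 in RECK/4NQ, against 13 in Zeo, and NTNG2, a GPI-anchored netrin relative, was at 50.1 in RECK and 117 in RECK/4NQ, against 109 in Zeo. The other OLFM1 probe sets were below the floor on every array. ADAMTSL2, a secreted protein of the microfibril niche, was below the floor on every array, at 1.78 in RECK, 1.73 in RECK/4NQ and 2.37 in Zeo. Of the 5 genes of this group 2 were at least 1.5-fold lower in RECK and 2 at least 1.5-fold higher, where 18.4% and 9.37% of all genes were. In RECK/4NQ 1 was lower and none higher, where 17.7% and 7.89% of all genes were. The remaining genes were AIF1L, an actin-bundling protein gene, at 32.5 in RECK and 21.9 in RECK/4NQ, against 41.7 in Zeo, and FAM78A, at 40.8 in RECK and 49.4 in RECK/4NQ, against 90.7 in Zeo. PLPP7 was below the floor on every array, at 5.51 in RECK, 4.2 in RECK/4NQ and 5.62 in Zeo. SPACA9, a gene of sperm and cilia, was at 188 in RECK and 91.9 in RECK/4NQ, against 105 in Zeo, while its other probe set was below the floor in both transfected lines and at 14.3 in Zeo.

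Compared directly, RECK was lower than RECK/4NQ by at least 1.5-fold in 9 of the 41 genes and higher in 7, where 13.3% and 13.6% of all genes were. At 2-fold 2 were lower and 4 higher (4.47% and 5.76% of all genes). After quantile normalisation the split was 5 lower and 7 higher, where 2463 and 2865 of all 19775 genes were. ABL1, NTNG2, BRD3, EXOSC2, NUP214, UCK1, TTF1, SURF6 and SURF1 were the lower ones. ASS1, LAMC3, SPACA9, GFI1B, GBGT1, SLC2A6 and OLFM1 were higher, most of them dim. The median log2 ratio of the 38 genes at or above the floor was -0.22, or -0.15 relative to all genes.

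The 41 genes had 42 further probe sets, of 26 genes, that did not enter the values above. In RECK over Zeo 30 of the 42 were below Zeo, 4 above it and the rest had both signals below the floor, where 40.3% of the 21316 further probe sets of all genes were below and 25.1% above. In RECK/4NQ over Zeo 22 were below and 11 above, where 38.1% and 26.6% of those of all genes were. Of the 28 with a mean signal at or above the 60th percentile, 26 were below Zeo in RECK, with a median log2 ratio of -0.65, and 20 were below it in RECK/4NQ, with a median of -0.39. Of all further probe sets that bright, 65.4% were below Zeo in RECK, with a median of -0.19, and 58.2% in RECK/4NQ, with a median of -0.09. These share arrays and cells with the brightest probe sets and are no replicates. Further probe sets of 3 genes were at least 1.5-fold above Zeo on both arrays. One of PRRC2B read 42.8 in RECK and 73.4 in RECK/4NQ, against 11.2 in Zeo. One of NUP214 read 70.9 in RECK and 68.4 in RECK/4NQ, against 38.5 in Zeo. One of MED27 read 23.5 in RECK and 38.2 in RECK/4NQ, against 13.1 in Zeo. Each was far dimmer than the brightest probe set of its gene. Both further probe sets of GTF3C4 split the lines. The dimmer was at 6.18 in RECK and 59.7 in RECK/4NQ, against 42.2 in Zeo. The brighter was at 71 in RECK and 103 in RECK/4NQ, against 87.6 in Zeo.

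The list leaves out genes that lie between GPR107 and PAEP, and 27 of these had a probe set. Among them, RECK had 7 (25.9%) at least 1.5-fold below Zeo and 6 (22.2%) above it, against 18.4% and 9.37% of all genes, so the share below was near that of all genes. RECK/4NQ had 10 (37%) below and 5 (18.5%) above, against 17.7% and 7.89% of all genes. Of the 27, 20 had a mean signal at or above the floor, with a median relative to all genes of -0.03 in RECK and -0.25 in RECK/4NQ. The first came to -0.35 when probe sets of a gene were averaged and to -0.62 with the floor at the 60th percentile of signals, so the median over these mostly dim genes depends on the setting. Among the 10 with a mean signal at or above the 60th percentile of 27.8, the median log2 ratio was -0.89 in RECK and -0.68 in RECK/4NQ, beside -0.88 and -0.47 for the 34 listed genes that bright, and -0.20 and -0.10 for all 10719 such genes. The bright unlisted genes of the interval were thus as far below Zeo at the median as the listed ones.

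Named by that brightness rule, MRPS2, a mitochondrial ribosomal protein gene, was at 1649 in RECK and 2183 in RECK/4NQ, against 3309 in Zeo. GTF3C5, another TFIIIC subunit, was at 860 in RECK and 1141 in RECK/4NQ, against 1860 in Zeo. PPP1R26, a regulator of protein phosphatase 1, was at 401 in RECK and 566 in RECK/4NQ, against 1033 in Zeo. The signals of all 3 genes were lowest in RECK and highest in Zeo. BRD3OS, which lies beside BRD3, was at 471 in RECK and 672 in RECK/4NQ, against 946 in Zeo, CACFD1 was at 38.9 in RECK and 50.6 in RECK/4NQ, against 80.3 in Zeo, and PPP1R26-AS1 was at 25 in RECK and 25.1 in RECK/4NQ, against 42.7 in Zeo. COL5A1, a fibrillar collagen chain, went apart, at 493 in RECK and 92.0 in RECK/4NQ, against 201 in Zeo, above Zeo in one line and below it in the other. PIERCE1 was above Zeo in both, at 227 in RECK and 191 in RECK/4NQ, against 148 in Zeo. HMCN2 was at 33.6 in RECK and 58.9 in RECK/4NQ, against 47.1 in Zeo, and BARHL1 was at 51.8 in RECK and 9.22 in RECK/4NQ, against 59.2 in Zeo. The interval therefore holds genes of both directions.

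**Figure D2:**
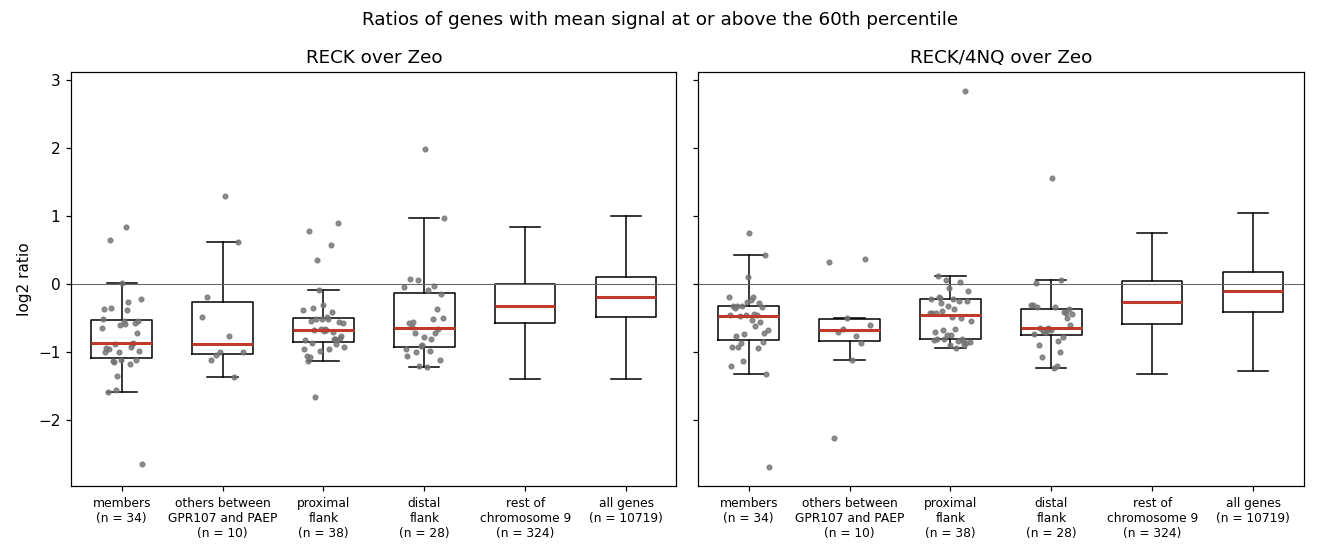
Log2 ratio to Zeo of genes with a mean signal at or above the 60th percentile: the listed genes (members), the other genes between GPR107 and PAEP, 43 measured genes on each side before this filter, the rest of chromosome 9 and all genes (boxes, quartiles with whiskers to 1.5 times the interquartile range; points, single genes of the 4 sets from 9q34; numbers of genes under each box). The 4 sets from 9q34 have medians between -0.65 and -0.89 in RECK and between -0.46 and -0.68 in RECK/4NQ, below -0.33 and -0.26 for the rest of the chromosome.

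Genes outside the interval were lower too. Of the 43 measured genes next to GPR107 on the side of the centromere, 24 were at least 1.5-fold lower in RECK and 3 higher, and 18 were lower and 2 higher in RECK/4NQ. Of the 43 next to PAEP on the side of the telomere, 20 were lower and 7 higher in RECK, and 19 lower and 6 higher in RECK/4NQ. Of all genes 18.4% were that much lower and 9.37% higher in RECK, and 17.7% lower and 7.89% higher in RECK/4NQ. The shares higher towards the telomere, 16.3% in RECK and 14% in RECK/4NQ, were thus above those of all genes. Towards the centromere they were below, at 6.98% in RECK and 4.65% in RECK/4NQ. Among genes at or above the 60th percentile of signal the median log2 ratio was -0.67 in RECK and -0.46 in RECK/4NQ for 38 genes of the first flank, and -0.65 in both for 28 of the second. Of the 34 listed genes that bright, 22 (64.7%) were at least 1.5-fold lower in RECK and 14 (41.2%) in RECK/4NQ, where 19.1% and 16.5% of all such genes were. On both arrays 29 of the 34 (85.3%) were below Zeo, as were 81.6% and 78.6% of the flanks, 90% of the 30 remaining genes towards the telomere, 54.1% of the 294 remaining genes of chromosome 9 on the other side and 45.2% of all such genes.

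Among flank genes above the floor on all arrays, those with the largest ratios were, towards the centromere, PTGES, PKN3, URM1, ODF2 and SLC27A4. PKN3, a kinase of the protein kinase C-related family, was at 54.0 in RECK and 130 in RECK/4NQ, against 171 in Zeo, and URM1, a ubiquitin-like tRNA modifier, was at 1464 in RECK and 1967 in RECK/4NQ, against 3221 in Zeo. ODF2 was at 175 in RECK and 211 in RECK/4NQ, against 370 in Zeo, and the fatty acid transporter SLC27A4 was at 376 in RECK and 444 in RECK/4NQ, against 784 in Zeo. PTGES, prostaglandin E synthase, differed from its neighbours, at 89.5 in RECK and 346 in RECK/4NQ, against 48.0 in Zeo. Towards the telomere, the receptor gene NOTCH1 was at 302 in RECK and 298 in RECK/4NQ, against 702 in Zeo, and EGFL7, a secreted vascular protein, was at 139 in RECK and 119 in RECK/4NQ, against 277 in Zeo. SNORA17B was at 12.3 in RECK and 23 in RECK/4NQ, against 36.9 in Zeo. C9orf163 (78.7 in RECK and 58.4 in RECK/4NQ, against 19.9 in Zeo) and LHX3 (34.3 in RECK and 29.2 in RECK/4NQ, against 14.8 in Zeo) were higher in both transfected lines.

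**Figure D3:**
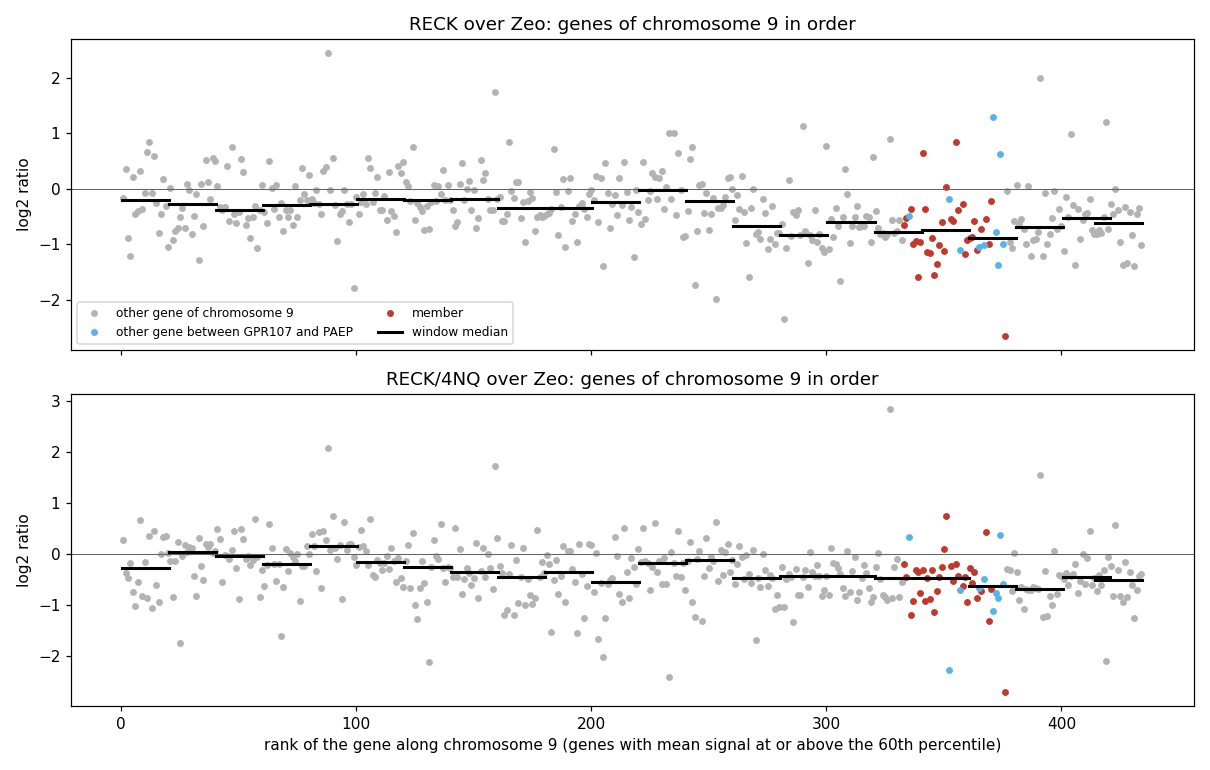
Log2 ratio of RECK over Zeo (top) and RECK/4NQ over Zeo (bottom) for the 434 genes of chromosome 9 with a mean signal at or above the 60th percentile, by rank along the chromosome, with black bars for medians of 20 successive genes. From the window that starts at ARPC5L to the last gene every bar lies at or below -0.53 for RECK and at or below -0.44 for RECK/4NQ, and the listed genes sit inside that stretch.

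To see how far the lower ratios reach, the 434 genes of chromosome 9 at or above the 60th percentile of signal were taken in order in 22 windows of 20 genes, the last of which overlaps the one before. In the first 13 windows, from KANK1 to RPL35, the median log2 ratio of RECK over Zeo lay between -0.39 and -0.03. In the last 9, from ARPC5L to EHMT1, it lay between -0.88 and -0.53. The cut at ARPC5L was placed where these same medians step down, so the separation of the groups in RECK follows from the cut. For RECK/4NQ over Zeo the last 9 lay between -0.69 and -0.44. The first 13 lay between -0.55 and 0.16 there, and 2 of them, at -0.46 and -0.55, reached into the range of the last 9. The lowest window in RECK, at -0.88, ran from SURF1 to NACC2 and held 9 listed genes, and the lowest in RECK/4NQ, at -0.69, ran from LINC02846 to EDF1 and held none. Between the lines, RECK over RECK/4NQ had window medians between -0.38 and 0.05 over the last 9 windows.

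The rest of the genome gives the measure for these medians. Over 504 windows of 20 successive genes on the other chromosomes the median was -0.20 for RECK over Zeo and -0.10 for RECK/4NQ over Zeo. Of these, 8 (1.59%) were at or below -0.53 in RECK, with the lowest at -0.91, and 3 (0.595%) were at or below -0.44 in RECK/4NQ, with the lowest at -0.71. None of the 504 met both limits, where all of the last 9 windows of chromosome 9 did by the way the limits were set. The first windows of chromosome 18 came close: USP14 to RAB12 had medians of -0.77 in RECK and -0.41 in RECK/4NQ, and MTCL1 to MC5R had -0.91 in RECK, below every window of chromosome 9, and -0.40 in RECK/4NQ. By whole chromosome, the median log2 ratio in RECK was -0.39 for chromosome 9, -0.46 for chromosome 13 and -0.38 for chromosome 18, and above those for every other autosome and X. In RECK/4NQ chromosome 9 had the lowest median, at -0.35, followed by chromosome 4 at -0.20.

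**Figure D4:**
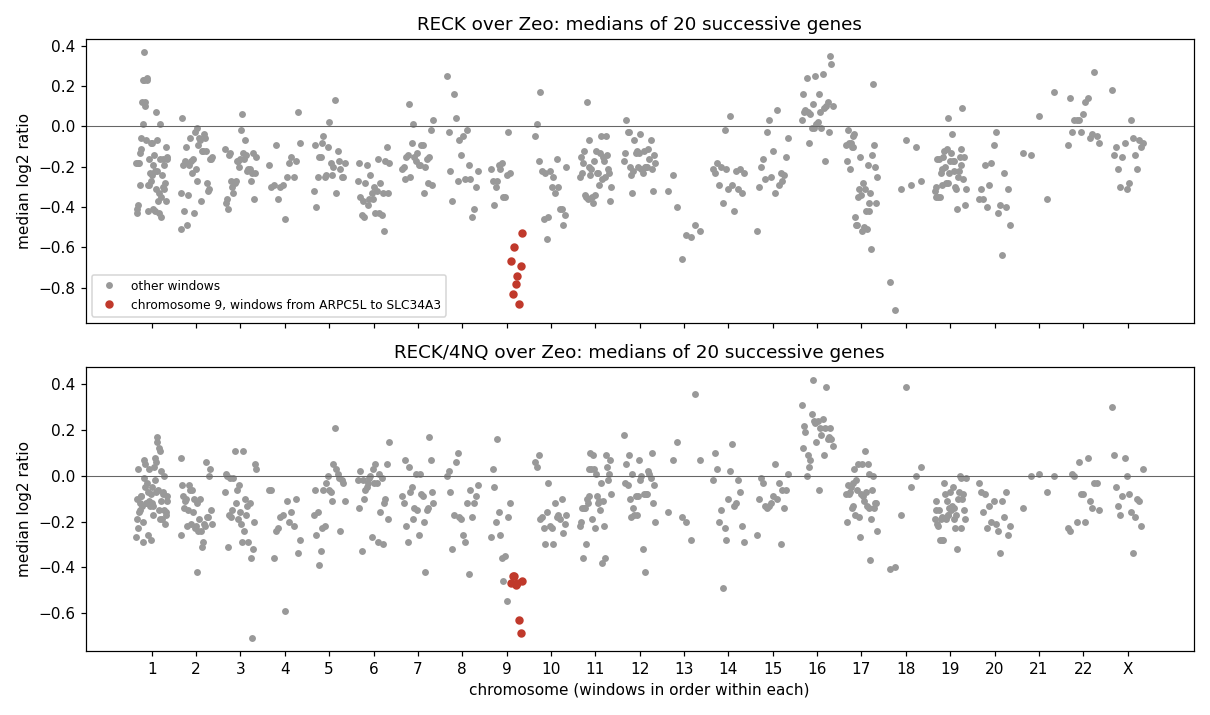
Median log2 ratio of 20 successive genes (mean signal at or above the 60th percentile) along chromosomes 1 to 22 and X, for RECK over Zeo (top) and RECK/4NQ over Zeo (bottom); each point is 1 complete window. Windows of chromosome 9 from ARPC5L to SLC34A3 lie at or below -0.53 in RECK and -0.44 in RECK/4NQ, where 8 and 3 of 504 windows on other chromosomes do, and the first windows of chromosome 18 lie low in both panels.

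Genes that act with the listed ones but lie outside the interval were read from 11 lists. Of 87 measured partner genes, 16 were at least 1.5-fold lower in RECK and 6 higher (18.4% and 9.37% of all genes), and 12 were lower and 5 higher in RECK/4NQ (17.7% and 7.89%). Their median log2 ratio was -0.24 in RECK and -0.10 in RECK/4NQ, beside -0.05 in RECK and 0 in RECK/4NQ over all 19775 genes. Those 19775 include many genes below the floor, whereas most partner genes had a mean signal at or above it. Over all genes at or above the floor the medians were -0.19 in RECK and -0.12 in RECK/4NQ, close to those of the partners. Among 10 other genes of the RNA exosome, 3 were lower and 2 higher in RECK, with EXOSC6 at 193 in RECK and 121 in RECK/4NQ, against 109 in Zeo. Of 26 other Mediator genes 6 were lower in RECK and 7 in RECK/4NQ. MED1, which binds nuclear receptors, was at 72.0 in RECK and 118 in RECK/4NQ, against 147 in Zeo, and MED31 at 987 in RECK and 384 in RECK/4NQ, against 807 in Zeo. MED4 was at 34.9 in RECK and 89.8 in RECK/4NQ, against 42.0 in Zeo. MED23 and MED24, at 24.9 and 31.0 in Zeo, were below the floor in RECK/4NQ, and MED24 also in RECK. None of 4 other TFIIIC subunits passed 1.5-fold in either line, the largest ratio being that of GTF3C2, at 1461 in RECK and 1738 in RECK/4NQ, against 1933 in Zeo.

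Among 10 other genes of the WDR5 methyltransferase complexes 1 was lower in each line, and KMT2C was the farthest from Zeo, at 24.0 in RECK and 38.2 in RECK/4NQ, against 19.2 in Zeo. TBC1D7, which acts with hamartin and tuberin, was at 384 in RECK and 597 in RECK/4NQ, against 346 in Zeo, and TSC2 did not pass 1.5-fold. Of 5 other O-mannosylation genes 1 was lower in RECK, POMK, at 29.5 in RECK and 41.6 in RECK/4NQ, against 44.6 in Zeo. Of 13 other assembly factors of cytochrome oxidase, COX11 was at 57.8 in RECK and 46.9 in RECK/4NQ, against 120 in Zeo, and COA5 at 232 in RECK and 66.7 in RECK/4NQ, against 146 in Zeo. Among the other BET genes, BRDT was above the floor in RECK alone, at 18.7, and of the VAV genes, VAV1 was above it in RECK/4NQ alone, at 21.6. In the list of Ral genes RGL2 had the largest ratio to Zeo, at 540 in RECK and 1063 in RECK/4NQ, against 932 in Zeo. RALGPS1, the other Ral gene counted as lower in RECK, lies on chromosome 9 in the stretch from ARPC5L onward, at 49.7 in RECK and 61.8 in RECK/4NQ, against 85.5 in Zeo. In the urea cycle CPS1 was at 13 in RECK and 39.8 in RECK/4NQ, against 32.2 in Zeo. The lists were drawn up for function, not for map position.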

How the data were processed

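Each deposited value is an intensity, the MAS5 signal of 1 probe set on 1 array, per the submitters' processing notes; no software version or scaling target is stated there. MAS5 subtracts mismatch signal, so weak signals are noisy. Of 54675 probe sets, 41091 had 1 gene symbol in the platform annotation and 1801 had several. Ratios, counts and medians were computed here with Python 3.11.15, numpy 2.4.6 and pandas 2.3.3, without further scaling. Summed intensities were 11372200 in RECK, 12349800 in RECK/4NQ and 12517000 in Zeo, and 1 array per line limits the precision. Gene order comes from RefSeq (GRCh38.p14), which placed 19738 of 19775 genes. The genes, role groups and partner lists were chosen with earlier results of these data known. Named were every listed gene, unlisted genes of the interval at or above the 60th percentile of signal, the 5 flank genes per side with the largest ratios, and in each partner list those past 2-fold or else the largest. The ratio script was tested on simulated data. Alternatives changed the scaling, the floor and the choice of probe set.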

Additional observations from a re-analysis of the deposited data

How the results depend on the processing

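Alternatives changed the scaling (median centring, quantile normalisation), the floor (20th or 60th percentile) or the probe set (mean of all, or leaving out _s_at, _x_at and _a_at sets, which kept 31 of the listed genes). The count at least 2-fold lower in RECK than in Zeo, 10, became 6 after centring and 6 after quantile normalisation. The share of all genes fell too, from 6.7% to 4.87% and 4.64%. The count at least 1.5-fold lower in RECK than in RECK/4NQ, 9, became 5 after quantile normalisation, where 13.3% of all genes became 12.5%. The count at least 2-fold lower in RECK/4NQ than in Zeo, 6, became 3 when the 60th percentile served as floor. The share of all genes fell from 7.13% to 2.31%. The count at least 2-fold lower in RECK than in RECK/4NQ, 2, became 5 with mean probe sets and 1 of 31 without the shared sets. The share of all genes, 4.47%, became 3.59% and 4.71%. The count at least 1.5-fold lower in RECK/4NQ than in Zeo, 17 of 41, became 11 of 31 without the shared sets, where 17.7% of all genes became 18.0%. The median of the listed genes relative to all genes, -0.59 in RECK over Zeo, became -0.47 with mean probe sets. For the other genes of the interval, the median of RECK over Zeo, -0.03, became -0.62 with that higher floor and -0.35 with mean probe sets. That of RECK/4NQ over Zeo, -0.25, became -0.11 and -0.55 with the floor at the 20th and 60th percentile and -0.37 with mean probe sets. That of RECK over RECK/4NQ, -0.22, became -0.12 without shared sets. With mean probe sets FIBCD1 reversed to 0.56 in RECK and 0.33 in RECK/4NQ over Zeo, and SPACA9 to -0.31 in RECK; without shared sets PRRC2B reversed to 1.81 in RECK. Fewer genes or dimmer probe sets enter under the probe set alternatives; beyond that the cause was not tested. No paired analysis was possible because each line has 1 array. Signals near the floor carry no order.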
